A study of Macaca fascicularis
Homo sapiens with 2 samples.

Results

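The respiratory chain is built from 2 genomes, and its genes were followed here through the first 7 days of neural induction in human and cynomolgus macaque cells. Genes were chosen by symbol: nuclear genes beginning with NDUF, SDHA to SDHD, UQCR, COX followed by 4 to 8, or ATP5, and the 13 protein-coding genes of mitochondrial DNA. The choice gave 190 of 43173 genes, 115 of 20669 human and 75 of 22504 cynomolgus genes. The human set held 87 nuclear subunits, 12 assembly factors, the inhibitor ATP5IF1, 2 read-through genes and 13 mitochondrial genes. The cynomolgus set held 50 nuclear subunits, 11 assembly factors, ATP5IF1 and 13 mitochondrial genes. Each of these 50 subunits has a human counterpart of the same symbol, and many cynomolgus genes carry an identifier without a symbol, so the cynomolgus set is partial.

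The cells were H9, a human embryonic stem cell line, and 56A1, a cynomolgus induced pluripotent stem cell line. Each species was thus 1 line, of a different kind, so species cannot be told apart from line. Both were UGP2 knockout lines, lacking the enzyme that makes UDP-glucose, and no cells with intact UGP2 were analysed here, so every group carries the knockout. At day 0 the cells were pluripotent cultures in UPPS medium. At day 7 they had spent 7 days in neural progenitor medium with 10 µM SB431542, which blocks activin and NODAL receptors, and 100 nM LDN193189, which blocks BMP receptors. Cells of both species were mixed before capture, so each day is 1 droplet library and there were no replicates. No test was possible: differences describe these 2 libraries, and all intervals cover counting error only.

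In the inner mitochondrial membrane, complex I and complex II take electrons from NADH and succinate and pass them through coenzyme Q to complex III. Cytochrome c carries them on to complex IV, which reduces oxygen, and complex V uses the resulting proton gradient to make ATP. Complex II is encoded in the nucleus alone, whereas the other complexes combine nuclear subunits with a few made inside mitochondria. Pluripotent stem cells are known for high glycolytic flux, and neural differentiation is commonly accompanied by a change in mitochondrial metabolism.

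Cells with at least 1000 UMIs (unique molecular identifiers, 1 per captured RNA molecule), at least 90% of them on the cell's own genome and at most 20% mitochondrial were used. They numbered 5206 human and 2016 cynomolgus cells on day 0 and 8174 and 6467 on day 7, with medians of 4713 to 7021 own-species UMIs per cell. The libraries shared 50 barcodes, of which 11 human and 2 cynomolgus barcodes were kept on both days. UMIs on the human genome were 8.78% of all in cynomolgus cells of day 0 and 6.01% of those of day 7, and cynomolgus UMIs 2.53% and 1.32% in human cells. The limit of 10% on these UMIs bounds the day 0 value of the cynomolgus cells. Most markers went with the labels. Of 9 measured human pluripotency markers 8 were at least 1.5-fold lower on day 7 and 1 higher. Of 5 cynomolgus ones 3 were lower and 1 higher. For neural progenitor markers 7 of 9 human and 7 of 8 cynomolgus genes were at least 1.5-fold higher, with 1 lower in each species. Among all measured human genes 25.1% were lower and 27.4% higher. The cynomolgus shares were 20.4% and 25.1%. Mesoderm markers summed to at most 6.96 CPM and endoderm markers to at most 5.99 CPM in any group. Other lists were higher. Surface ectoderm or trophoblast markers summed to 443.8 CPM on day 0 and 75.7 CPM on day 7 in human cells. KRT18 alone was at 433 CPM in human day 0 cells outside cluster 3. Neural crest markers summed to 65.4 and 40.3 CPM in human cells, and neuron markers to 11.8 and 90.9 CPM in cynomolgus cells. A group of 540 human day 0 cells (cluster 3) and another of 114 human day 7 cells (cluster 5) stood apart with few UMIs. Results that rest on these cells are given with and without them.

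Mitochondrial transcripts made up a smaller part of the RNA on day 7 than on day 0 in both species. In human cells the 13 genes held 8.13% of own-species UMIs at day 0 against 3.90% at day 7 (exact binomial 95% intervals 8.12% to 8.14% and 3.89% to 3.90%), a difference of -4.23 percentage points. In cynomolgus cells they held 4.39% (4.38% to 4.40%) and 2.36% (2.36% to 2.37%), a difference of -2.03 percentage points. The log2 change of the share was -1.06 in human and -0.89 in cynomolgus cells. Human cells carried the larger mitochondrial share on both days. These shares and all levels are relative to the other RNA of the same cells, so less of one RNA and more of the rest cannot be told apart.

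Single cells showed the same order. The median over human cells was 8.09% on day 0 (quartiles 6.72% and 9.42%) and 3.89% on day 7 (3.25% and 4.63%), so the interquartile ranges of the 2 days did not overlap. In cynomolgus cells it was 4.34% (3.67% and 5.10%) and 2.34% (1.81% and 2.86%), again without overlap. The day 0 median was the higher in every quartile of depth: by UMI count the human medians ran from 6.81% to 8.79% on day 0 and from 3.52% to 4.45% on day 7, and the cynomolgus medians from 4.10% to 4.60% and from 2.27% to 2.44%. The limit of 20% removed 93 and 34 human cells and 0 cynomolgus cells. Without any limit the human shares were 8.31% and 3.92%. Among human day 0 cells 507 of 5206 lay under 3%, of which 470 were in cluster 3, and 136 lay between 3% and 5%.

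**Figure D1:**
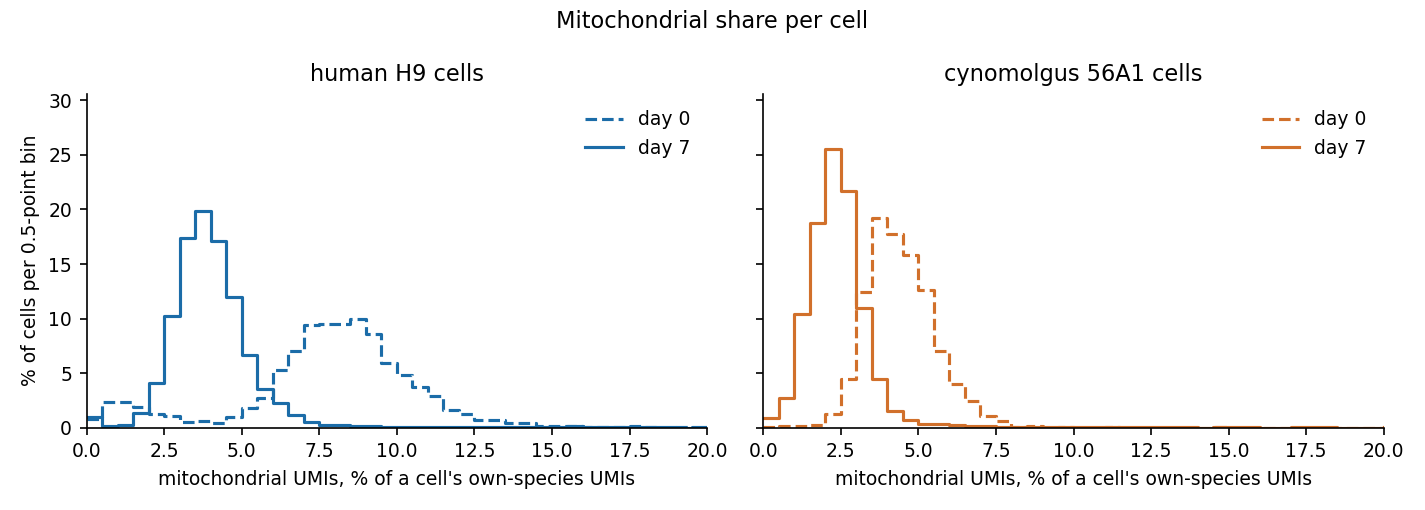
Mitochondrial UMIs as a percent of each cell's own-species UMIs, as the percent of cells in bins of 0.5 percentage points, for human (left) and cynomolgus (right) cells on day 0 (dashed) and day 7 (solid). The most populated human bin starts at 8.5% on day 0 and 3.5% on day 7, and the cynomolgus bins start at 3.5% and 2%; the small human day 0 peak under 3% is mostly cluster 3.

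The 13 mitochondrial genes were not lower to the same degree. They are transcribed from both strands of 1 circular DNA as long precursors and then cut apart, and most are polyadenylated. A 3' tag counts the molecules that carry a poly(A) tail. In human cells MT-CYB, the cytochrome b of complex III, had the largest decrease, with 0.550% on day 0 and 0.195% on day 7 (-1.50) of own-species UMIs (log2 changes of shares in parentheses). The complex IV genes split. MT-CO2 held 1.23% on day 0 and 0.454% on day 7 (-1.44) and MT-CO3, the most abundant of the set, 2.75% on day 0 and 1.09% on day 7 (-1.33). MT-CO1, the catalytic core of the same complex, held 1.22% on day 0 and 0.918% on day 7 (-0.42). As a result MT-CO1 made up 15.1% of mitochondrial UMIs on day 0 and 23.6% on day 7, while MT-CO3 went from 33.8% to 28.0%.

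Of the complex V genes, MT-ATP6, part of the proton channel, held 1.08% on day 0 and 0.427% on day 7 (-1.34), and MT-ATP8, whose reading frame overlaps it on the same transcript, 0.00918% on day 0 and 0.00752% on day 7 (-0.29). The complex I genes spanned the widest range. MT-ND1 held 0.211% on day 0 and 0.103% on day 7 (-1.03), MT-ND4 0.459% on day 0 and 0.236% on day 7 (-0.96), MT-ND3 0.371% on day 0 and 0.264% on day 7 (-0.49) and MT-ND2 0.151% on day 0 and 0.122% on day 7 (-0.31). The change was -0.35 for MT-ND5 and -0.18 for MT-ND4L. MT-ND6, the 1 member of the set encoded on the light strand, was the only human mitochondrial gene with a larger share on day 7, with 0.0148% on day 0 and 0.0169% on day 7 (0.19) (exact binomial 95% intervals 0.0144% to 0.0152% and 0.0165% to 0.0173%). Neighbouring genes whose RNAs overlap on opposite strands cannot be told apart where strand is not used in counting. Strand use is not given in the sources used here. What part of the MT-ND6 UMIs comes from MT-ND6 messages with a poly(A) tail was not tested.

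In cynomolgus cells the changes ran from -1.09 for ND1 to 0.07 for ND4L. COX2, with 1.06% on day 0 and 0.532% on day 7 (-0.99), and COX3, with 1.05% on day 0 and 0.549% on day 7 (-0.94), were close to each other on both days and the most abundant. CYTB held 0.721% on day 0 and 0.376% on day 7 (-0.94), ND1 0.456% on day 0 and 0.214% on day 7 (-1.09), ND4 0.274% on day 0 and 0.139% on day 7 (-0.98) and ATP6 0.355% on day 0 and 0.205% on day 7 (-0.79). The change was -0.64 for ND2, -0.71 for ND6, -0.49 for ND5, -0.51 for ATP8 and -0.25 for ND3. That of ND4L was within counting error (95% interval -0.01 to 0.16). ND6 had a larger share on day 7 in human and a smaller one in cynomolgus cells, a difference that was not tested.

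COX1 stood out between the species. In cynomolgus cells it held 0.0475% on day 0 and 0.0434% on day 7 (-0.13) of UMIs, or 1.08% and 1.84% of all mitochondrial UMIs, whereas human MT-CO1 was among the 3 most abundant genes of the set on both days. UMIs on the human copy outnumbered those on the cynomolgus copy in cynomolgus cells on day 0, at 55.2% of both, and were 12.96% on day 7. These human-copy UMIs amounted to 1.41% of those in human cells of the same library on day 0, and the median over the 13 mitochondrial genes was 1.54%. Both copies together held 0.0966% and 0.0468% of the UMIs of cynomolgus cells, below the human level of 1.22% and 0.918%. The part of annotation or mapping in this low level was not tested.

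**Figure D2:**
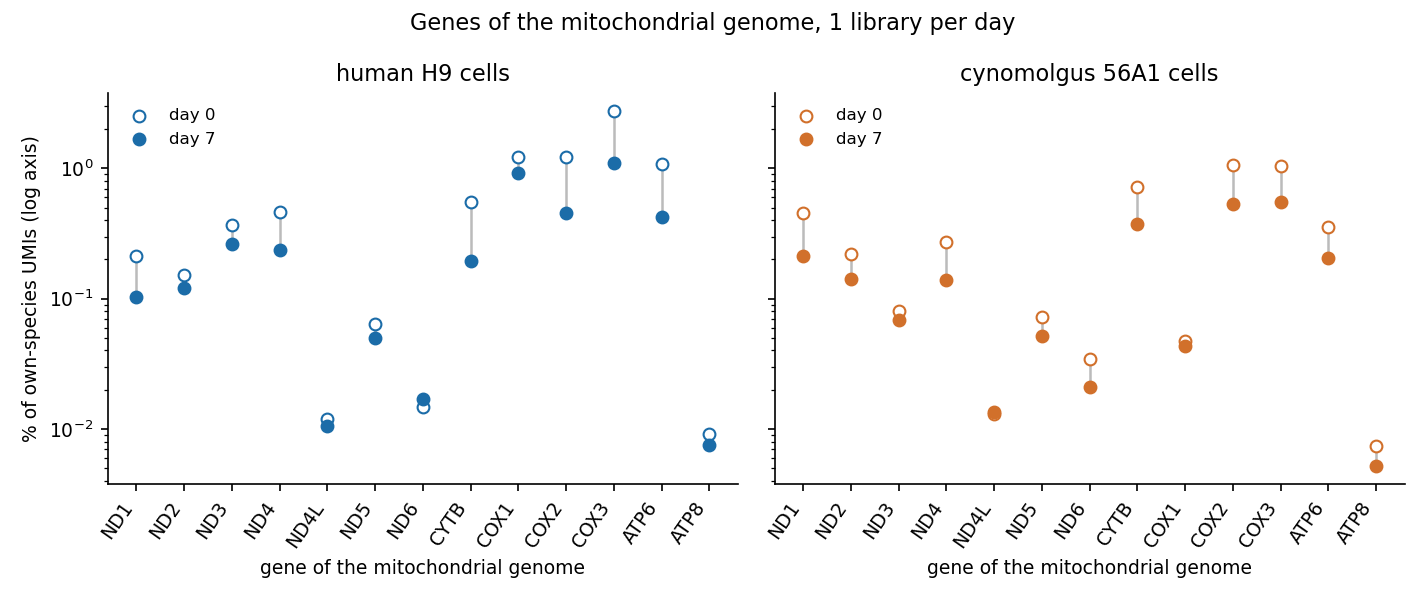
Percent of own-species UMIs (log axis) on each of the 13 genes of mitochondrial DNA in human (left) and cynomolgus (right) cells, on day 0 (open) and day 7 (filled), 1 library per day, with human genes under their cynomolgus names. Day 7 points lie lower except for ND6 in human and ND4L in cynomolgus cells, and cynomolgus COX1 lies near 0.05%. Counting intervals are smaller than the points for most genes.

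Nuclear subunit transcripts were also lower on day 7 in human cells. Levels are CPM (counts scaled to a fixed total of own-species UMIs outside mitochondrial genes), changes are log2((CPM day 7 + 1)/(CPM day 0 + 1)) and stand in parentheses, a pair of levels gives day 0 against day 7, and a gene was measured with at least 5 CPM on either day. A UMI is counted once per molecule whatever the transcript's length, so levels were not divided by length. How well each gene was captured and mapped is not known, so levels of different genes need not be on 1 scale. MT-ATP6 and MT-ATP8, on the same transcript, had 408321 and 3463 human UMIs on day 0. Of 79 measured human subunits (of 87), 37 were at least 1.5-fold lower on day 7, 1 was at least 1.5-fold higher and 41 lay between, with a median log2 change of -0.57. Among all 12010 genes measured the same way, 25.1% were at least 1.5-fold lower and 27.4% higher, and the median was 0.05. Among the 5285 genes at 50 CPM or more these shares were 26% and 27%. In all, 70 of the 79 subunits had a change below 0, against 47.7% of all 12010 genes. Subunit UMIs together went from 2.26% to 1.58% of non-mitochondrial UMIs.

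Cytosolic ribosomal protein genes took a growing part of the human RNA, 143822 CPM on day 0 and 179880 CPM on day 7. Leaving them out of the total put the median subunit change at -0.51, with 35 subunits lower. Without cluster 3 of day 0 and cluster 5 of day 7 the median was -0.54 and 35 subunits were lower.

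**Figure D3:**
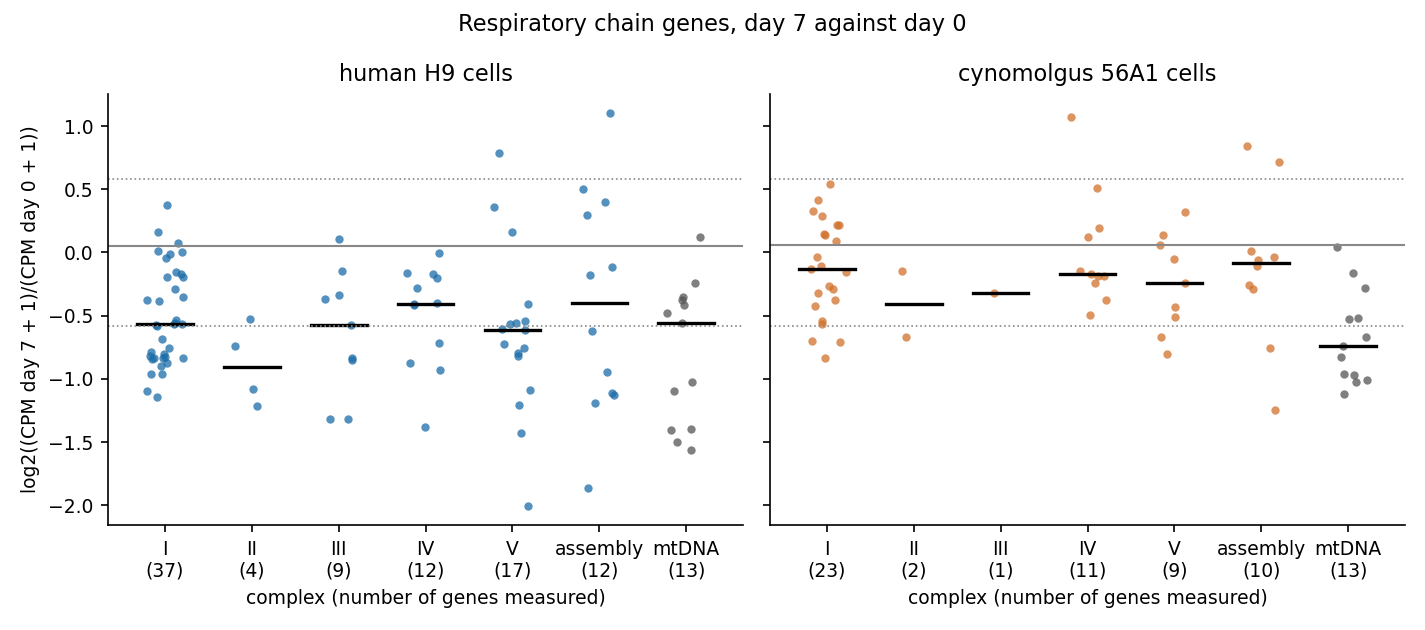
Log2 change of each measured gene, day 7 against day 0, by complex for nuclear subunits (coloured), for the assembly factors and for genes of mitochondrial DNA (grey), in human (left) and cynomolgus (right) cells. Black bars are medians, the grey line is the median of all measured genes (0.05 in human, 0.06 in cynomolgus cells) and dotted lines mark 1.5-fold. All genes are on the scale of CPM of non-mitochondrial UMIs here; human subunits centre near -0.57 and cynomolgus subunits near -0.16.

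The human counts by complex stand against 25.1% of all 12010 genes lower and 27.4% higher. Complex I, the NADH dehydrogenase and the largest of the 5, had 37 measured human subunits. Of these 16 were lower and 0 higher, with a median of -0.57. Its nuclear core subunits, which hold the flavin and the iron-sulfur clusters, were unequal. NDUFV2 stood at 321 CPM at day 0 against 178 CPM at day 7 (-0.85), NDUFS3 at 104 against 57.9 CPM (-0.84) and NDUFS7 at 98.7 against 58.0 CPM (-0.76). NDUFS8 and NDUFV1, close to 1.5-fold, had changes of -0.58 and -0.56. NDUFS1, which carries several of the clusters, was at 75.1 against 84.3 CPM (0.16). Among the accessory subunits NDUFB10 was at 312 against 141 CPM (-1.14) and NDUFS6 at 443 against 207 CPM (-1.09), while NDUFS4, needed for a stable NADH-binding module, was at 98.5 against 128 CPM (0.38), the largest increase of the complex.

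Complex II, the succinate dehydrogenase shared with the tricarboxylic acid cycle, had the lowest median, -0.91, over 4 subunits. The membrane anchor SDHD was at 117 CPM at day 0 against 49.97 CPM at day 7 (-1.22) and the iron-sulfur subunit SDHB at 88.2 against 41.2 CPM (-1.08). The flavoprotein SDHA, at 25.6 against 14.98 CPM (-0.74), was also lower, and the other anchor SDHC, at 217 against 149.7 CPM (-0.53), was not past 1.5-fold.

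Complex III, the cytochrome c reductase, had 4 of 9 subunits lower and a median of -0.57. The Rieske iron-sulfur protein UQCRFS1 was at 316 against 126 CPM (exact Poisson 95% intervals 310.2 to 322 and 123 to 129.6), a change of -1.32. The core protein UQCRC1 was at 122 against 48.4 CPM (-1.32) and its partner UQCRC2 at 184 against 146 CPM (-0.33), so the 2 core proteins differed. UQCRH, the hinge protein and the most abundant human subunit on day 0, was at 1405 against 778 CPM (-0.85), with UQCRHL, a close copy, at 15.4 against 13.9 CPM (-0.15); the split of reads between such copies is uncertain. UQCRB was near its day 0 level, at 445 against 479.8 CPM (0.11).

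Complex IV, cytochrome c oxidase, had the human median closest to 0, -0.40. Of its 12 measured subunits 4 were lower and 0 higher, where 25.1% of all human genes were lower and 27.4% higher. COX5A, at 609.9 CPM at day 0 against 233 CPM at day 7 (-1.38), had the lowest change of the complex. COX6A1 was at 265 against 139 CPM (-0.93), COX7B at 336 against 183 CPM (-0.87) and COX8A at 321 against 196 CPM (-0.71). COX4I1, which with COX5A forms the earliest nuclear part of the complex, was at 643 against 528 CPM (-0.28), COX6C at 371 against 369.7 CPM (-0.01) and NDUFA4, assigned to this complex despite its name, at 779 against 585 CPM (-0.41).

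Complex V, the ATP synthase, held the extremes of the human nuclear subunits. Of 17 measured subunits 10 were lower and 1 higher, with a median of -0.62. The 3 ATP5MC genes encode the same mature c subunit of the proton-driven ring behind different import sequences, and they diverged. ATP5MC1 was at 390.0 against 96.5 CPM (intervals 383 to 397 and 93.6 to 99.5), a change of -2.00. This was the largest decrease among the measured human nuclear genes of the respiratory set chosen by symbol. ATP5MC3 was at 518 against 192 CPM (-1.43). ATP5MC2 was at 566 against 976 CPM (intervals 558 to 573 and 967 to 985), a change of 0.79, and was the 1 subunit of any complex past 1.5-fold upward. ATP5MC2 was already the most abundant of the 3 on day 0. The catalytic ATP5F1B was at 373 against 176 CPM (-1.09) and its partner ATP5F1A at 359.6 against 244 CPM (-0.56), while ATP5F1E of the central stalk was at 383 against 493 CPM (0.36).

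ATP5IF1, which binds ATP synthase and blocks ATP hydrolysis, was at 249 CPM at day 0 against 135 CPM at day 7 (-0.88) in human cells. Of 12 human assembly factors, 6 were lower and 1 higher, with a median of -0.40. Of all human genes 25.1% were lower and 27.4% higher. NDUFAF4, needed for early complex I assembly, was at 158 against 42.7 CPM (-1.86) and NDUFAF8 at 179 against 77.8 CPM (-1.19). SDHAF4, which helps load SDHA, was at 18.7 against 41.3 CPM (1.10), the largest increase, and NDUFAF6 at 66.0 against 93.9 CPM (0.50) and NDUFAF3 at 19.0 against 25.4 CPM (0.40) were higher by less than 1.5-fold.

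In cynomolgus cells nuclear subunit levels were closer to those of day 0. Of 46 measured subunits (of 50), 6 were at least 1.5-fold lower, 1 was higher and 39 lay between, with a median of -0.16. Among all 11276 genes 20.4% were lower and 25.1% higher, and the median was 0.06. Among 5268 genes at 50 CPM or more these shares were 19.4% and 22.5%. The share of subunits past 1.5-fold was thus below that of all genes in both directions. Subunit UMIs went from 1.51% to 1.35% of non-mitochondrial UMIs. A change below 0 was found in 30 of the 46, against 46.9% of all 11276 genes.

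The 6 lower cynomolgus subunits came from 3 complexes. In complex I they were NDUFA10, at 158 CPM at day 0 against 88.0 CPM at day 7 (-0.84), NDUFS8, a core subunit at 236 against 145 CPM (-0.71), and NDUFB7, at 275 against 169 CPM (-0.70). In complex II it was SDHD, at 229 against 144 CPM (-0.67), and in complex V ATP5MC3, at 128 against 72.9 CPM (-0.80), whose human copy took 58.1% and 55.8% of both copies' UMIs (-0.88 with both copies summed), and ATP5F1D, at 308 against 194 CPM (-0.67). Medians were -0.13 over 23 subunits of complex I, -0.17 over 11 of complex IV and -0.24 over 9 of complex V. Complex III was represented by UQCRC1 alone, at 183 against 146 CPM (-0.32). Several subunits were above their day 0 level by less than 1.5-fold: NDUFC2 at 366 against 535 CPM (0.55), COX6C at 310.3 against 443 CPM (0.51), NDUFA2 at 124 against 166 CPM (0.41) and NDUFA9 at 132 against 166 CPM (0.33).

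Of the other named cynomolgus members, the inhibitor and the catalytic subunits were within 1.5-fold of day 0 and 4 assembly factors were not. ATP5IF1 was at 312 CPM at day 0 against 272 CPM at day 7 (-0.19), ATP5F1A at 637 against 447 CPM (-0.51) and ATP5F1B at 232 against 172 CPM (-0.43). Of the complex I core, NDUFS3 was at 89.9 against 61.5 CPM (-0.54), NDUFS1 at 53.4 against 43.6 CPM (-0.29) and NDUFV1 at 65.1 against 69.3 CPM (0.09). Of 10 measured assembly factors 2 were lower and 2 higher, with a median of -0.08, near the 20.4% and 25.1% of all genes. NDUFAF4 was at 191 against 79.6 CPM (-1.25) and NDUFAF6 at 52.2 against 30.6 CPM (-0.75), whereas SDHAF4, at 7.68 against 14.5 CPM (0.84), and NDUFAF3, at 4.77 against 8.49 CPM (0.72), were higher at low levels. With both copies summed the change of NDUFAF3 was 0.53, inside the 1.5-fold limit, as it also was with species called at 80% of UMIs. Without the day 7 clusters 1 and 4 the change of NDUFAF6 was -0.56, inside the 1.5-fold limit, and that of NDUFC2 was 0.63, outside it.

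COX7A1 was the 1 muscle, lung or testis isoform above the minimum level, and in cynomolgus cells alone. COX7A1, the heart and muscle form of a complex IV subunit, was at 22.4 against 48.2 CPM (intervals 19.6 to 25.4 and 45.9 to 50.6) in cynomolgus cells, a change of 1.07 and the 1 cynomolgus subunit past 1.5-fold upward. In the 5 cynomolgus clusters of day 0 it was at 18.5 to 31.4 CPM and in the 7 of day 7 at 39.7 to 67.2 CPM, so the days did not overlap. Human cells held 2 COX7A1 UMIs on day 0 and 1 on day 7, below the floor of 3 counts (0.0865 and 0.0686 CPM). The widely expressed form COX7A2 was at 535 against 471 CPM (-0.18) in cynomolgus and 441 against 335 CPM (-0.40) in human cells, and COX7A2L was at 250.4 against 222 CPM (-0.17) in human cells.

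The other tissue forms were under the minimum of 5 CPM. COX4I2, the lung and hypoxia form, was at 2.71 and 3.26 CPM in cynomolgus cells, and at 0.0865 and 0.572 CPM in human cells, against 642 and 544 CPM of COX4I1 in cynomolgus cells. COX6A2, the muscle form, had 8 and 0 human UMIs and 2 and 2 cynomolgus UMIs. The testis form COX6B2 was at 4.02 and 1.47 CPM in cynomolgus and 1.18 and 0.869 CPM in human cells, beside 294 and 263 CPM of human COX6B1. COX8C had 4 and 15 human UMIs, and NDUFA4L2, a hypoxia-induced relative of NDUFA4, 8 and 23 human and 0 and 1 cynomolgus UMIs.

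Comparing the species gene by gene, with a single line each, the human decrease was the larger for most shared subunits. Over 45 subunits measured in both, the cynomolgus minus human difference of log2 changes was above 0 in 37, with a median of 0.46, where 50.5% of all 9094 shared genes had a difference above 0 (51.1% of 5287 at 50 CPM or more). It was 1.5-fold or more above 0 in 13 subunits, against 17.6% of all shared genes, and 1.5-fold or more below 0 in none of the 45, against 16.7% of all shared genes. The same 45 symbols had a median change of -0.56 in human and -0.17 in cynomolgus cells, with 19 of them at least 1.5-fold lower in human cells. Between complexes the median difference was 0.31 in complex I (23 subunits), 0.27 in complex IV (10) and 0.58 in complex V (9), and 0.47 over 2 subunits of complex II. Across the 45 subunits the human and cynomolgus changes had a Pearson r of 0.51 (Spearman rho 0.50), a description over genes that share the same 2 libraries.

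The largest differences were at NDUFA9 (1.16), a complex I subunit at the joint of its arms, the assembly factor NDUFAF8 (1.15), NDUFC2 (1.12), COX7B (1.06) and NDUFS5 (1.05). NDUFA9 was at 61.3 against 34.0 CPM (-0.83) in human and 132 against 166 CPM (0.33) in cynomolgus cells, and NDUFC2 at 242 against 163 CPM (-0.57) and 366 against 535 CPM (0.55). COX7B was at 336 against 183 CPM (-0.87) and 375 against 429 CPM (0.19). NDUFS5 was at 669.7 against 377 CPM (-0.83) and 164 against 191 CPM (0.22). Its cynomolgus value rests on the smaller part of the reads, because the human copy took 66.9% of both copies' UMIs on day 0 and 52.9% on day 7. With both copies summed its change was -0.29 in place of 0.22 in cynomolgus cells, beside -0.83 in human cells. Its cynomolgus direction is therefore uncertain.

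Differences in the other direction were fewer and smaller among subunits. They were led by the assembly factors NDUFAF6 (-1.26) and NDUFAF1 (-0.59), followed by NDUFS4 (-0.50), NDUFS1 (-0.45) and NDUFB5 (-0.34). Both assembly factors, and none of the 3 subunits, were past 1.5-fold. NDUFS4 was at 231 against 211 CPM (-0.13) and NDUFB5 at 342 against 285 CPM (-0.27) in cynomolgus cells. In human cells NDUFS4 was at 98.5 against 128 CPM (0.38) and NDUFB5 at 149 against 157 CPM (0.07). No shared member was past 1.5-fold in opposite directions in the 2 species.

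**Figure D4:**
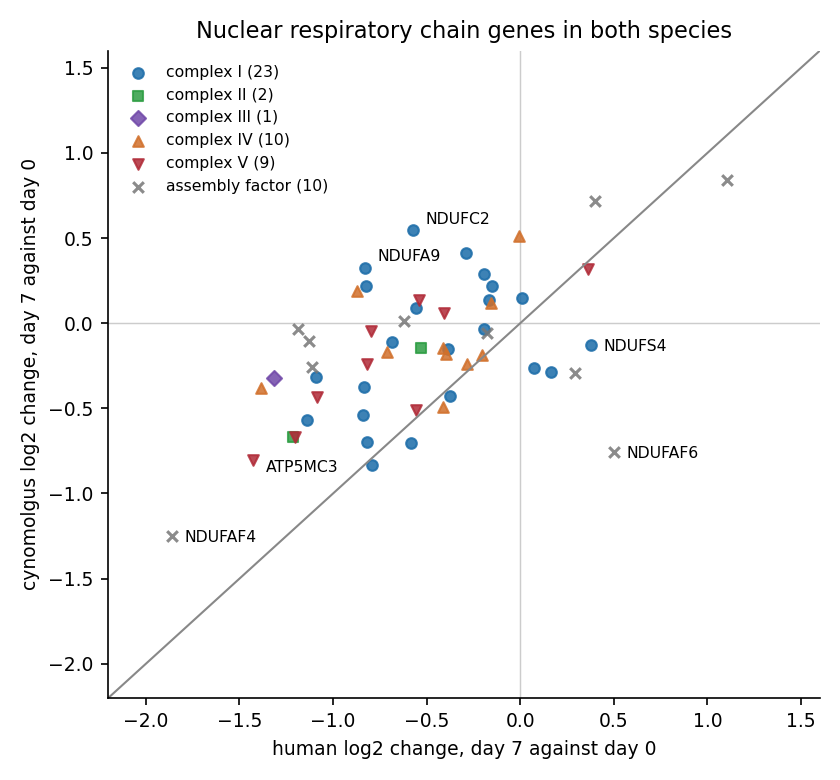
Log2 change of each nuclear gene measured in both species, human on the x axis and cynomolgus on the y axis, by complex, with the line of equal change. Of 45 subunits 37 lie above the line; NDUFA9 and NDUFC2 lie far above it and the assembly factor NDUFAF6 far below.

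The balance of the 2 genomes differed between days in both species. Mitochondrial UMIs per nuclear subunit UMI were 3.91 on day 0 and 2.57 on day 7 in human cells; the cynomolgus ratios were 3.05 and 1.79, where the set of nuclear subunits is smaller. On the common scale of CPM of non-mitochondrial UMIs, the median change was -0.55 over 13 mitochondrial and -0.57 over 79 nuclear genes in human cells. In cynomolgus cells it was -0.74 over 13 mitochondrial and -0.16 over 46 nuclear genes. A median weighs genes of few and many UMIs alike. With UMIs summed over genes, the log2 change on this scale was -1.13 for mitochondrial genes and -0.52 for nuclear subunits in human cells. The cynomolgus values were -0.93 and -0.16. Complexes built by both genomes spanned wide ranges: in human complex III the change was -1.56 for MT-CYB and -1.32 to 0.11 for the 9 nuclear subunits, and in complex IV -1.50 to -0.48 for the 3 mitochondrial genes and -1.38 to -0.01 for the 12 nuclear subunits.

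The relation between the shares from the 2 genomes among cells of 1 species and day was weak in each group without the low-depth clusters, with values from -0.22 to 0.11. Across 5206 human day 0 cells the mitochondrial share and the nuclear subunit share had a Pearson r of -0.43, and without cluster 3 it was 0.11 over 4666 cells. On day 7 it was -0.27, and -0.08 without cluster 5. In cynomolgus cells it was -0.06 on day 0 and -0.22 on day 7. These are descriptions over sparse counts within single libraries.

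To see where cells of 1 day differ, each species and day was clustered without respiratory, mitochondrial and ribosomal protein genes. Outside the low-depth clusters, human clusters ranged from 6.82% to 8.91% mitochondrial UMIs on day 0 and from 3.57% to 3.99% on day 7, and nuclear subunits from 1.98% to 2.43% and from 1.46% to 1.82% of non-mitochondrial UMIs. Cynomolgus clusters ranged from 4.02% to 4.51% and from 1.64% to 2.74% mitochondrial UMIs, and from 1.32% to 1.67% and from 1.24% to 1.61% for the subunits. Mitochondrial shares of the 2 days did not overlap in either species, whereas the cynomolgus subunit shares did. Human day 0 cluster 4, of 434 cells, had each of the 9 measured neural progenitor markers at least 1.5-fold above other day 0 cells (1746 against 249.8 CPM summed). Such markers were not left out of the clustering, so they may have helped form this cluster. Its mitochondrial share was 7.62% against 8.16%, and its 79 subunits had a median of -0.20 against the rest, with 3 past 1.5-fold lower and 0 higher. Of all 12010 genes 10% were past 1.5-fold lower and 14.7% higher in that cluster.

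**Figure D5:**
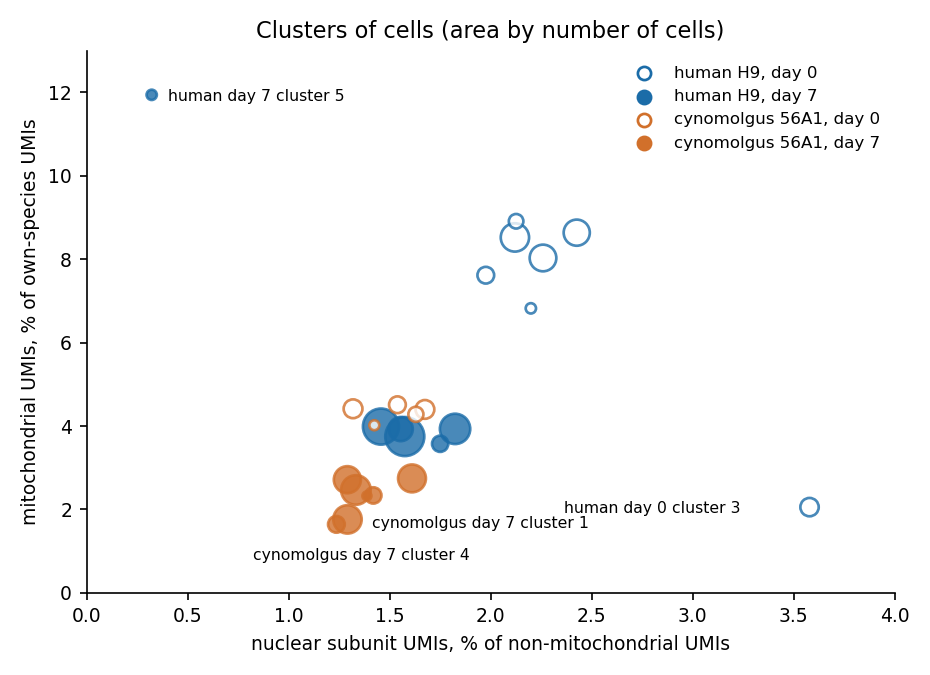
Each circle is a cluster of cells, placed by its nuclear subunit share (x axis, % of non-mitochondrial UMIs) and mitochondrial share (y axis, % of own-species UMIs), with area by number of cells, for human and cynomolgus cells on day 0 (open) and day 7 (filled). Human day 0 cluster 3, at 3.58% and 2.06%, and day 7 cluster 5, at 0.322% and 11.9%, lie apart from their groups.

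The 2 human clusters that stood apart did so in opposite ways. Day 0 cluster 3, with a median of 1915.5 UMIs against 7389.5 in other cells, had 2.06% mitochondrial UMIs against 8.31% and 3.58% nuclear subunits against 2.22%. All 13 mitochondrial genes were at least 1.5-fold lower there (-2.61 to -0.76, the last for MT-ND6), while 50 of 79 subunits were at least 1.5-fold higher and 1 lower. Of all 12010 nuclear genes 7% were higher and 53% lower in that contrast. NDUFS1 was the lower one, and NDUFA3 (1.13) and ATP5ME (1.03) led the higher ones. Ribosomal protein genes were 23.0% of its non-mitochondrial UMIs. Day 7 cluster 5, with a median of 1511.5 UMIs, had 11.9% mitochondrial UMIs against 3.86% and 0.322% nuclear subunits against 1.58%. All 13 mitochondrial genes were at least 1.5-fold higher and 71 of 79 subunits lower there. Of all nuclear genes 37.2% were higher and 32% lower. Counts there were small. Of 12 assembly factors 7 were lower and 3 higher, with a median of -0.91. Among the higher ones was NDUFAF5 (1.67), which rested on 13 UMIs. Ribosomal protein genes were 2.10% of this cluster's non-mitochondrial UMIs, against 16.2% to 21.1% in the other human day 7 clusters. Both clusters stay unnamed, and the part of RNA quality or damaged cells in them was not tested.

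In cynomolgus cells of day 7, clusters 1 and 4 together held 1839 cells, 28.4% of the group. There all 9 genes of the hypoxia list found by symbol were at least 1.5-fold above the other cells, and they summed to 3736 against 1238 CPM. These genes (ADM, ANKRD37 and VEGFA among them) follow the oxygen-sensing factor HIF1. They were not left out of the clustering, so they may have helped form these clusters, and the count only describes them. Mitochondrial UMIs were 1.72% against 2.59%. ND3 (-1.50), COX2 (-0.89) and CYTB (-0.87) were the lowest of 5 mitochondrial genes past 1.5-fold lower, and COX1 alone was past 1.5-fold higher (796 against 319.7 CPM, 1.31). Nuclear subunits differed little, with 1.27% against 1.38%. The median over 46 subunits was -0.12 and none was past 1.5-fold. Of all 11276 genes 4% were past 1.5-fold lower and 4.95% higher. COX4I2 was at 9.33 and 5.28 CPM in these clusters and at 0.696 to 8.45 CPM in the others. Over whole groups the 9 hypoxia genes found in cynomolgus cells summed to 744.4 CPM on day 0 and 1891 CPM on day 7. The human list held 10 genes and summed to 826.2 and 1401 CPM. It includes LDHA, which was not found by symbol in cynomolgus cells, so the sums of the 2 species are not comparable. LDHA was at 449 CPM in human day 0 cells outside cluster 3 and 637 CPM in human day 7 cells outside cluster 5. Without these clusters the cynomolgus mitochondrial share of day 7 was 2.59% and the median subunit change -0.15. The part of the hypoxia list's genes in the mitochondrial difference was not tested.

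Pathways that feed or build the respiratory chain were followed with gene lists. Mitochondrial ribosomal proteins were chosen by symbol and the other lists were picked by gene name. Counts stand against 25.1% of all genes lower and 27.4% higher in human cells. In cynomolgus cells they stand against 20.4% lower and 25.1% higher. Mitochondrial ribosomal proteins, which translate the 13 mitochondrial messages, had the lowest medians of these lists: 52 of 74 measured were lower and 0 higher in human cells (median -0.93), and 24 of 57 lower and 1 higher in cynomolgus cells (-0.53). Among 26 genes of mitochondrial DNA and RNA upkeep in each species, 14 were lower and 1 higher in human cells (-0.66), and 10 lower and 1 higher in cynomolgus cells (-0.52). TFAM, which packages and transcribes mitochondrial DNA, was at 159 against 90.8 CPM (-0.80) in human and 186 against 226 CPM (0.28) in cynomolgus cells. LRPPRC, which protects mitochondrial messenger RNAs, was at 234 against 158 CPM (-0.56) and 436 against 269 CPM (-0.69).

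For the electron carriers and coenzyme Q synthesis, 7 of 17 genes were lower and 0 higher in human cells (-0.34), and 4 of 16 lower and 1 higher in cynomolgus cells (-0.20). Cytochrome c (CYCS), the mobile carrier, was at 487 against 116 CPM (-2.07) in human cells. CYC1, the cytochrome c1 of complex III, was at 208 against 59.97 CPM (-1.77) in human and 269.8 against 146 CPM (-0.88) in cynomolgus cells. Other assembly factors had 12 of 40 lower and 2 higher (-0.23) in human and 9 of 32 lower and 3 higher (-0.25) in cynomolgus cells, shares of lower genes near those of all genes. Tricarboxylic acid cycle genes had 7 of 17 lower and 1 higher (-0.52) and 3 of 15 lower and 1 higher (-0.22), the latter share of lower genes at that of all cynomolgus genes. Regulators, a list that includes the pluripotency marker LIN28A, were mixed, with 8 of 19 lower and 6 higher in human cells (-0.28). In cynomolgus cells 2 of 15 were lower and 3 higher (-0.11). PPARGC1A, a coactivator of mitochondrial biogenesis, was low throughout, at 2.28 against 6.61 CPM (1.21) in human and 1.78 against 3.87 CPM (0.81) in cynomolgus cells.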

How the data were processed

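Single-cell RNA was counted with 10x Genomics 3' version 3.1 chemistry in 1 library per day, with human and cynomolgus cells pooled. The authors deposited UMI counts for each gene in each barcode, from Cell Ranger 7.1.0 per the file headers. Version 7.2.0 and the build GRCh38 are listed in the submitters' processing notes. Gene names carry the prefixes of GRCh38 and of Macaca_fascicularis 6.0, Ensembl release 107. How reads that match both genomes were treated, and whether strand was used, is not given in the sources used here. The libraries held 12093 and 16403 barcodes with 71377836 and 99430745 UMIs.

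Cells were kept as given in the report. No doublet caller was run, and an alternative removed the top 5% of cells by UMI count. Counts were summed over cells by species and day and divided by own-species non-mitochondrial UMIs (CPM). A pseudocount of 1 CPM and a minimum of 5 CPM on either day were used. Exact Poisson and binomial 95% intervals cover counting error only. With 1 library per day no p-value was computed. Clusters (scanpy 1.11.5, leidenalg 0.10.2, 2000 variable genes, 30 components, 15 neighbours, resolution 0.5) left out respiratory, mitochondrial and ribosomal protein genes. The summing and fold code was tested on simulated data. Sums and intervals used pandas 2.3.3 and scipy 1.17.1 with numpy 2.4.6 under Python 3.11.15, and plots matplotlib 3.10.9.

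Members and lists were chosen with earlier results of these data known. Genes were named by rule: in each species the 5 largest increases and decreases at 20 CPM or more, the 5 largest and smallest species differences, all mitochondrial genes, tissue isoforms, complex II, the catalytic cores, ATP5IF1, CYCS, CYC1, TFAM, PPARGC1A and LRPPRC. The values of 1 gene named by this rule are not reported here. Other members named (among them UQCRH, UQCRHL, UQCRB, NDUFB10, NDUFS6, NDUFB7, ATP5F1D and ATP5F1E) and the genes given for single clusters were picked after their values were seen. Alternatives changed the cell filters, totals, scaling, pseudocount, minimum, fold and the handling of both genomes' copies. Those leaving out clusters, 1 gene or unshared subunits were chosen after seeing the data, as were the ribosomal protein list and the clusters compared.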

Additional observations from a re-analysis of the deposited data

Results flagged for a closer look

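For 3 members with at least 100 UMIs on the cynomolgus copy, UMIs on the human copy made up more than those on the cynomolgus copy within cynomolgus cells, a signal in data the comparisons did not use. For NDUFS5, an accessory subunit of complex I, the human copy held 66.9% of both copies' UMIs on day 0 and 52.9% on day 7. ATP5MC3, a gene for the c subunit of ATP synthase, had 58.1% on day 0 and 55.8% on day 7. COX1 of mitochondrial DNA had 55.2% on day 0. The assembly factor SDHAF1, under the minimum level, had 9 human-copy and 3 cynomolgus-copy UMIs on day 0. The human-copy UMIs of COX1 per cynomolgus group were 1.41% of those in human cells of that day, close to the 1.54% median of the mitochondrial genes. For nuclear members the median was 1.64% on day 0 and 1.14% on day 7, with highest values of 15.2% and 45.1%, both for NDUFS5.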

How the results depend on the processing

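No paired analysis was possible because each day is 1 library. The direction of every nuclear and mitochondrial summary was the same under each alternative that gave a value. The human median change was -0.66 to -0.51 with 11 to 46 subunits lower, the cynomolgus median -0.25 to -0.13 with 0 to 8 lower, and the median species difference 0.38 to 0.48 with 34 to 39 of the shared subunits higher in cynomolgus cells. Counting at 2-fold left 11 human subunits lower and 0 higher, and 0 cynomolgus subunits lower. Shared subunits alone gave 19 human subunits lower and 0 higher. Without cynomolgus day 7 clusters 1 and 4, 2 cynomolgus subunits were higher. The human difference in mitochondrial share, -4.23 percentage points, was -4.21 at a species call of 80%, -4.30 at 95%, -4.40 at 2500 UMIs, -4.40 without a mitochondrial limit, -3.71 at a limit of 10%, -4.27 without the 5% of cells with the most UMIs, -4.08 over UMIs of both genomes, -4.19 for per-cell medians, -4.17 with both genomes' mitochondrial UMIs, -4.45 without human day 0 cluster 3 and day 7 cluster 5, and -3.98 without MT-CO1. The cynomolgus difference, -2.03, was -2.06 at 2500 UMIs, -2.05 at a limit of 10%, -2.06 without the 5% of cells with the most UMIs, -1.79 over UMIs of both genomes, -2.00 for per-cell medians, -2.15 with both genomes' mitochondrial UMIs and -1.81 without clusters 1 and 4. At a 95% species call no cynomolgus day 0 cell was left, so that setting gave no cynomolgus value. Of 1253 values of named genes, 131 moved by more than counting error; the cause was not tested. The sign turned under some alternative for 6 of 53 named values within 1.5-fold of day 0, among them cynomolgus NDUFS5, COX4I2 and SDHC, and for 0 of 33 past 1.5-fold. Depth limits the tissue isoforms, several of which lie below 3 counts.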
